A study of Mus musculus with 29 samples.

Results

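The regions described here are 2855 stretches of the mouse genome to which a segmentation of monoubiquitinated histone H2A (H2AK119ub, H2Aub) gave its type 1, which are shorter than 250 kb, directly neighbour type 2 on at least 1 side and have no type 5 neighbour. They were chosen by the deposited type labels alone: segments were sorted, and the type, the length and the types of the 2 neighbouring segments decided membership. They make up 35.9% of the 7945 type 1 segments, 38.7% of the 7380 type 1 segments under 250 kb and 2855 of 31563 segments of all types. Their summed length was 175 Mb, which is 22.1% of the length of type 1 and 7.10% of the segmented length of chromosomes 1 to 19. The other short type 1 segments were 2983 between type 3 on both sides, 1442 beside type 5 and 100 of other kinds.

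The study profiled H2Aub and H3K27me3 with CUT&RUN, a low-input method that cuts and releases the DNA bound by an antibody, in 29 libraries of mouse oocytes and embryos in 16 groups of 1 to 3 libraries. H2Aub was measured in 24 libraries and H3K27me3 in 5. The 16 wild-type H2Aub libraries covered 8 stages, from oocytes (germinal vesicle and metaphase II) through the zygote and the 2-cell, 4-cell and morula embryo to the inner cell mass of blastocysts and the E6.5 epiblast. Part of these carried the floxed allele, with no deletion named: germinal vesicle oocytes, 4-cell embryos, morulae and some 2-cell embryos were Eed (fl/fl) or had an Eed (fl/fl) mother on a B6/129 mixed background, and the other libraries came from B6/DBA mothers or oocytes. Another 6 H2Aub libraries came from germinal vesicle oocytes, 4-cell embryos and morulae labelled Gdf9-Eed (fl/fl), in which the maternal Eed is lost. Eed belongs to the core of Polycomb repressive complex 2, and Gdf9 is a gene of the growing oocyte. The remaining groups were 4-cell embryos of B6/DBA mothers, control or overexpressing PR-DUB, the deubiquitinase of H2A (2 libraries of H3K27me3 and 1 of H2Aub in each arm), and B6/DBA germinal vesicle oocytes with 1 library of H3K27me3. Embryos had PWK fathers, and where the labels give a number a library pooled 1 to 300 oocytes or embryos. The segmentation is a single one for the series, with no value for any library or group, so no stage, genotype or replicate could be compared and the depth behind a segment is unknown. No test was run: values are set beside their spread over the 19 chromosomes (SD), or an exact 95% Clopper-Pearson interval, which covers counting error only.

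H2Aub is written by Polycomb repressive complex 1 through its ubiquitin ligase subunits Ring1 and Rnf2, and is removed by PR-DUB, formed by Bap1 with an Asxl protein. It often lies with H3K27me3 over silent developmental genes, and in oocytes and early embryos both marks also spread over broad domains between genes. ChromHMM, named in the title of the segmentation, sorts the genome into a few recurring states by the marks or samples present. No key to its types 1 to 5 was given in the sources used here, so a type is used only as a label, without any statement on how much H2Aub it carries.

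Promoters are shown for 4 protein-coding genes that lie wholly inside very long members, because the CpG content of promoters is compared between kinds of members further on. Each runs 5′ to 3′ on the gene's strand from 250 bases before to 50 bases after the start site, from RefSeq with build GRCm38.p6 (mm10), and the capitals mark CpG. The first is Ccdc152 at chr15:3303477-3303776 on the minus strand, a coiled-coil protein gene in a 245 kb member that also holds Selenop and most of Ghr. It is followed by Slf1, a gene of the response to replication damage, at chr13:77135419-77135718 on the minus strand. The others are Cstf2t, an intronless testis paralogue of the polyadenylation factor Cstf2, at chr19:31082591-31082890 on the plus strand, and Asz1, a gene of the piRNA pathway in germ cells, at chr6:18109012-18109311 on the minus strand. The last 3 members are 240 kb long each.
Ccdc152: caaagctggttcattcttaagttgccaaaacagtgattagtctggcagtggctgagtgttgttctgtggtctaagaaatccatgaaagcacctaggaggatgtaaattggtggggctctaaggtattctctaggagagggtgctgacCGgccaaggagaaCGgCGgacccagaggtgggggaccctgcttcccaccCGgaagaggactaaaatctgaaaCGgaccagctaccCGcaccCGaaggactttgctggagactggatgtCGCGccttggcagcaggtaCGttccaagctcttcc
Slf1: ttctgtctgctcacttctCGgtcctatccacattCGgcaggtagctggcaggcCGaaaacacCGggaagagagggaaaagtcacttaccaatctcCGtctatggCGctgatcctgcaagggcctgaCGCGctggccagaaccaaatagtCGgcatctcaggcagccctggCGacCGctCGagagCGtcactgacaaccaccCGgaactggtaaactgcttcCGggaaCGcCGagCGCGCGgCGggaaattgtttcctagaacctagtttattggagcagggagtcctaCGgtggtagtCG
Cstf2t: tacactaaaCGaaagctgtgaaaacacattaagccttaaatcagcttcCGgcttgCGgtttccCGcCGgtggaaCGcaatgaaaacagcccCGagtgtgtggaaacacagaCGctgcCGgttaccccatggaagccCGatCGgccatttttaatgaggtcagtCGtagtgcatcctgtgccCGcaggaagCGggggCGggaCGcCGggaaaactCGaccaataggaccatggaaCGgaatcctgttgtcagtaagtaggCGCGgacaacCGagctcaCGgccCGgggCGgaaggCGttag
Asz1: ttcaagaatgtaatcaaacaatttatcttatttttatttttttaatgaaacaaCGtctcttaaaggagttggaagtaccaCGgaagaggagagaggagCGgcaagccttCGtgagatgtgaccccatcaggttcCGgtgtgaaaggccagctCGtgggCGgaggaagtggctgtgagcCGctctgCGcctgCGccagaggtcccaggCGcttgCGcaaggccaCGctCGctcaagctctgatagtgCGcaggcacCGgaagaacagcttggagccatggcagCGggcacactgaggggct

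The 4 sequences hold 10 CpG in Ccdc152, 23 in Slf1, 26 in Cstf2t and 17 in Asz1. The ratio of observed to expected CpG was 0.471 in Ccdc152, 0.922 in Slf1, 1.08 in Cstf2t and 0.783 in Asz1. Ccdc152 is thus the only one of the 4 under 0.6, the value used below to call a promoter CpG-rich. None of the 4 windows holds the letters TATAAA on either strand.

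Members held 38 of the 919 miRNA hairpins that the RefSeq sequence table places on 18 of the segmented chromosomes, in 33 members. In 4 members there were at least 2 hairpins. For each of these hairpins except Mir664, 1 of its mature miRNAs is shown. The seed, bases 2 to 8, is in capitals, to show which share one. A 120 kb member between type 2 on both sides, chr1:23205001-23325000, holds Mir30a and Mir30c-2, and a 185 kb member between types 2 and 3, chr2:38740001-38925000, holds Mir181a-2 and Mir181b-2. The Mir199a-2 and Mir214 pair lies in a member of 25 kb, chr1:162210001-162235000, and Mir194-1, Mir215 and Mir664 lie in one of 220 kb, chr1:185210001-185430000, both between types 2 and 3.
miR-30a-5p: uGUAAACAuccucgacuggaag
miR-30c-5p: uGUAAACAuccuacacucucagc
miR-181a-5p: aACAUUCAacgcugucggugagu
miR-181b-5p: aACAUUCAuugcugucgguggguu
miR-199a-5p: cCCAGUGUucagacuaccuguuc
miR-214-3p: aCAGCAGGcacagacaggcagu
miR-194-5p: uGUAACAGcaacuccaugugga
miR-215-5p: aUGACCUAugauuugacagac

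The miR-30 pair shares the seed GUAAACA and the miR-181 pair shares ACAUUCA, while the other 4 seeds printed differ from each other. Among all 62 mature miRNAs of members, 1 of which (miR-1938) has no hairpin in the count above, 3 seeds were shared, the third being AGCAGCA of miR-6353 and miR-6419, which lie on different chromosomes. Hairpins in members numbered 0.226 per Mb of those 18 chromosomes, against 0.800 in short type 1 segments between type 3, 0.169 in those beside type 5 and 0.387 over all segments.

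Members came in 2 kinds of near-equal number. Of the 2855, 1398 (49.0%) lay between type 2 on both sides and 1402 (49.1%) between types 2 and 3. Another 54 lay between types 2 and 4, and 1 ended at the last segment of chromosome 3, where it holds part of Wls, whose product carries Wnt proteins out of the cell. Lengths ran from 5 to 245 kb, with quartiles at 20, 40 and 85 kb, and the median per chromosome ran from 30 to 50 kb (SD 4.79). Members between type 2 on both sides had a median of 50 kb and those between types 2 and 3 one of 35 kb. The median was 45 kb between type 3 and 55 kb beside type 5. Lengths under 250 kb were set by the choice of members: 9 members were 245 kb long, 9 segments that met the other conditions were just outside at 250 kb, and 234 such segments were 250 kb or longer.

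**Figure D1:**
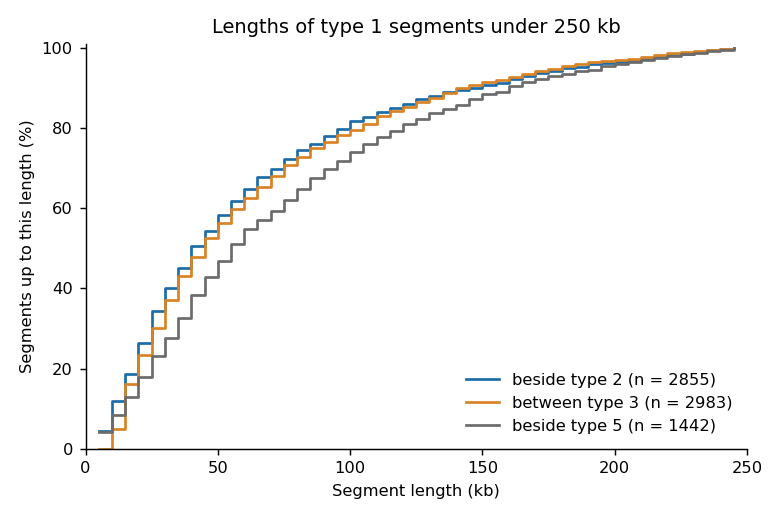
Share of type 1 segments under 250 kb (y axis, percent) up to each length (x axis, kb), for members (beside type 2), segments between type 3 and segments beside type 5. The curves of members and of segments between type 3 run close together, with medians of 40 and 45 kb, and the curve beside type 5 lies to the right, with a median of 55 kb.

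Short members were many but held little of the length. The 754 members under 25 kb (26.4%) summed to 10.1 Mb, while the 575 of 100 kb or more (20.1%) summed to 88.2 Mb. Type 2 at the border was usually thinner than the member: the type 2 neighbour had a median of 20 kb, and the member was the longer of the 2 at 64.8% of 4253 borders. Type 2 segments that did not touch a member had a median of 30 kb. Beyond the type 2 neighbour lay another member at 44.4% of those borders, type 1 of any kind at 53.8%, type 3 at 29.3%, type 5 at 9.19% and type 4 at 7.45%.

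Every member touches type 2 by the choice of members, so each stands in a run of consecutive segments of types 1 and 2. There were 1873 such runs with a member, with a median of 3 segments and 125 kb, and 1327 (70.8%) held a single member. The 63 runs of at least 10 segments held 373 members (13.1%). The run with the most segments, chr3:22090001-26790000, was 4700 kb long and had 34 segments, 14 of them members. It begins in Tbl1xr1, a subunit gene of the NCoR and SMRT corepressor complexes, crosses Naaladl2 and Nlgn1, the gene of the synaptic adhesion protein neuroligin 1, and ends in Spata16, a gene of sperm formation. At the ends of the runs lay type 3 in 72.4% of cases, type 5 in 17.4% and type 4 in 10.1%.

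Members held fewer genes per Mb than short type 1 segments between type 3. A gene was assigned to the single segment that covers the largest part of its body, which in a long gene can be a small part, and 1241 of 20558 protein-coding genes (6.04%) went to members. That is 7.09 per Mb (SD over chromosomes 2.54), against 20.0 between type 3 (SD 3.66) and 6.99 beside type 5 (SD 3.27). Long type 1 segments held 5.70, type 2 4.13, type 3 14.7, type 4 8.59 and type 5 3.36. Averaged per chromosome, members held 7.71 and whole chromosomes 8.43 (SD 2.45). Density was lower in members than between type 3 on 19 of 19 chromosomes, and lower than beside type 5 on 10 of 19. No protein-coding gene was assigned to 71.5% of members, against 31.3% of segments between type 3, 71.6% beside type 5 and 84.0% of type 2 segments. Unless said otherwise, gene bodies are those of protein-coding genes. Members that touch no such gene body numbered 1279 (44.8%), and 847 (29.7%) were covered by gene bodies from end to end. The assigned genes were long, with a median of 31.7 kb, against 23.6 kb between type 3, 17.7 kb beside type 5, 35.3 kb in type 2 and 17.6 kb over all protein-coding genes. Of the assigned genes 651 (52.5%) lay wholly inside.

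The neighbours divided the members by gene content. Members between type 2 on both sides held 3.76 genes per Mb, and members between types 2 and 3 held 11.1. Per chromosome the first ran from 1.46 to 13.1 (mean 4.49 ± 2.78, SD, n = 19 chromosomes) and the second from 7.36 to 17.1 (mean 11.6 ± 2.57). Density was higher beside type 3 on 18 of the 19 chromosomes. Gene bodies covered 38.6% of the length between type 2 on both sides and 58.9% between types 2 and 3, and 55.4% and 33.6% of the members touched no gene body. Members covered end to end were more alike, at 28.3% and 31.7%. Start sites, known for 80.1% of the genes, numbered 2.36 and 7.0005 per Mb over the 18 chromosomes that have them. The 54 members beside type 4 held 16 genes, 6.12 per Mb.

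**Figure D2:**
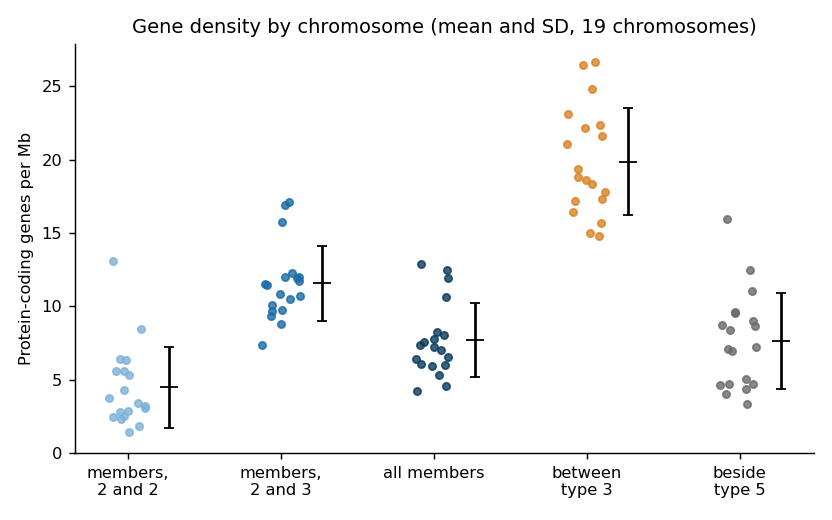
Protein-coding genes per Mb (y axis) in members between type 2 on both sides, members between types 2 and 3, all members, and the short type 1 segments between type 3 and beside type 5. Each point is 1 of 19 chromosomes, and the bars give the mean and SD. Points for members between types 2 and 3 lie between 7.36 and 17.1, mostly above those for members between type 2 on both sides.

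Promoters followed the same division. Of 755 promoters whose start site lies in a member, 51.1% (47.5 to 54.7) were CpG-rich, with an observed to expected ratio of at least 0.6, against 74.98% between type 3, 36.7% beside type 5, 33.4% in type 2 and 49.8% over all 16457 promoters. The share was 39.8% (33.2 to 46.8) in members between type 2 on both sides and 55.8% (51.5 to 60.1) in members between types 2 and 3. The letters TATAAA, searched on both strands of the 300 bases, were in 15.6% of member promoters, 7.94% between type 3, 24.9% beside type 5 and 13.5% of all. They were in 22.3% of promoters in members between type 2 on both sides and in 12.97% between types 2 and 3. A match is a description of the letters and does not show a working TATA box. Chromosomes differed widely: the median ratio in members was 0.617 overall and ran from 0.175 to 0.823 over the 18 chromosomes with start sites (SD 0.239). Without olfactory and vomeronasal receptor genes, left out after the data were seen, the median ratio in members was 0.699. The 2 kinds of members were not compared without these genes, so their part in the difference was not tested.

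**Figure D3:**
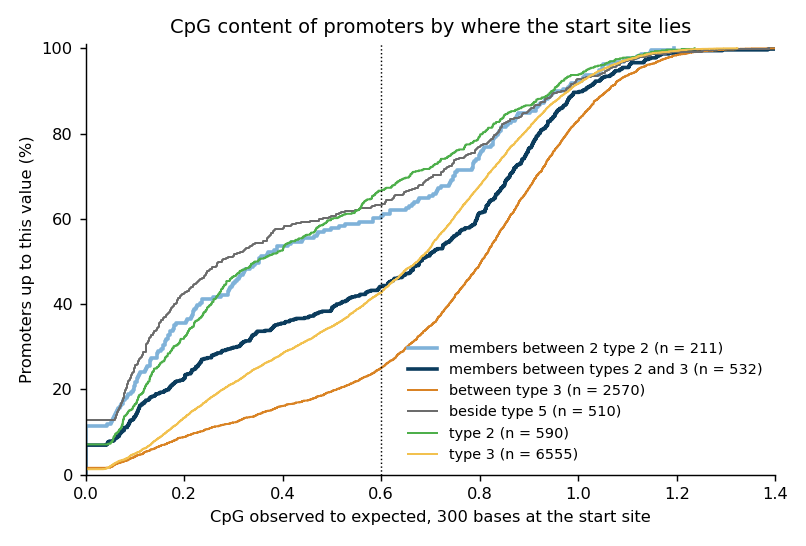
Cumulative share of promoters (y axis, percent) by CpG observed to expected (x axis), by where the start site lies. The dotted line marks 0.6. The curve of members between type 2 on both sides (211 promoters) lies left of that of members between types 2 and 3 (532), and both lie left of segments between type 3 (2570).

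Genes of members often began outside them, in type 3. Of 999 assigned genes with a known start site, 682 (68.3%, 65.3 to 71.1) started in the same member, 200 (20.0%, 17.6 to 22.6) in type 3 and 69 (6.91%) in type 2. The 200 starts in type 3 lay a median of 7.94 kb from the member (quartiles 2.99 and 19.5). Those genes had a median length of 71.4 kb, against 17.6 kb for genes that start in the member, and 71.5% of their promoters were CpG-rich, against 52.1%. The share with a start in type 3 was 2.34% of genes under 10 kb, 14.2% from 10 to 30 kb, 26.6% from 30 to 100 kb and 42.5% of longer genes. How often type 3 borders a member is fixed by the choice of members, so these shares are not set against other kinds of segment. A longer gene also reaches past a border more easily, so the differences by gene length are partly fixed too. The start site used can lie inside the gene body, so some of these genes may begin in another segment.

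The direction in which genes run across the borders was counted for each kind of neighbour. Of the 1402 borders with type 3, 670 (47.8%) fell inside a gene body, and of 4253 borders with type 2, 1678 (39.5%) did. Where the start site gave a single direction, genes ran from type 3 into the member at 348 of 515 borders (67.6%, 63.3 to 71.6), and this was the more common direction on 18 of 18 chromosomes with start sites (52.4 to 81.3%). These borders lie in 448 genes, of which 291 ran only into members, 112 only out and 45 both ways. At borders with type 2 genes ran into the member at 612 of 1293 (47.3%, 44.6 to 50.1), and into was the more common direction on 7 of 18 chromosomes. Borders inside 1 gene share its direction and are not independent of each other. A gene that crosses a member between type 2 on both sides adds 1 border of each direction. This pulls the type 2 share towards an even split, so the 2 neighbours are not directly comparable. Of the 701 genes at type 2 borders, 234 ran both ways, 196 only into members and 271 only out. At the type 3 borders of segments between type 3, where the same pull acts, genes ran out at 41.6%. The share was 32.4% at the type 3 borders of members, 39.0% beside type 5 and 37.0% in long type 1 segments.

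Many members lay inside long genes. In all 835 members (29.2%, 27.6 to 31.0) lay wholly inside 1 gene body, against 21.2% of segments between type 3 and 12.6% beside type 5. Both of those kinds had longer medians than members. Type 2 was like members, with 29.0% of its segments covered by gene bodies from end to end, against 29.7% of members. The share covered fell with length, from 35.9% of members under 25 kb to 20.5% of those of 100 kb or more. The 555 genes with at least 1 member wholly inside had a median length of 203 kb. That length is fixed in part, because a gene must be longer than a member inside it. Of these genes 150 held 2 or more and 67 held 3 or more. The genes with the most were Macrod2 with 10, which encodes an ADP-ribosylhydrolase, and Nell1 with 9, which encodes a secreted protein of bone growth. Both were chosen for these counts after the values were seen. Macrod2 is 1998 kb long, with 50.7% of its body in members and 32.3% in type 2 and 14.02% in type 5, and Nell1 is 888 kb long, with 37.5% in members and 61.4% in type 2. Both genes start in type 3. Magi2, a synaptic scaffold gene, held 7, and Fhit, Mctp1 and Pde4d were among those that held 6.

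**Figure D4:**
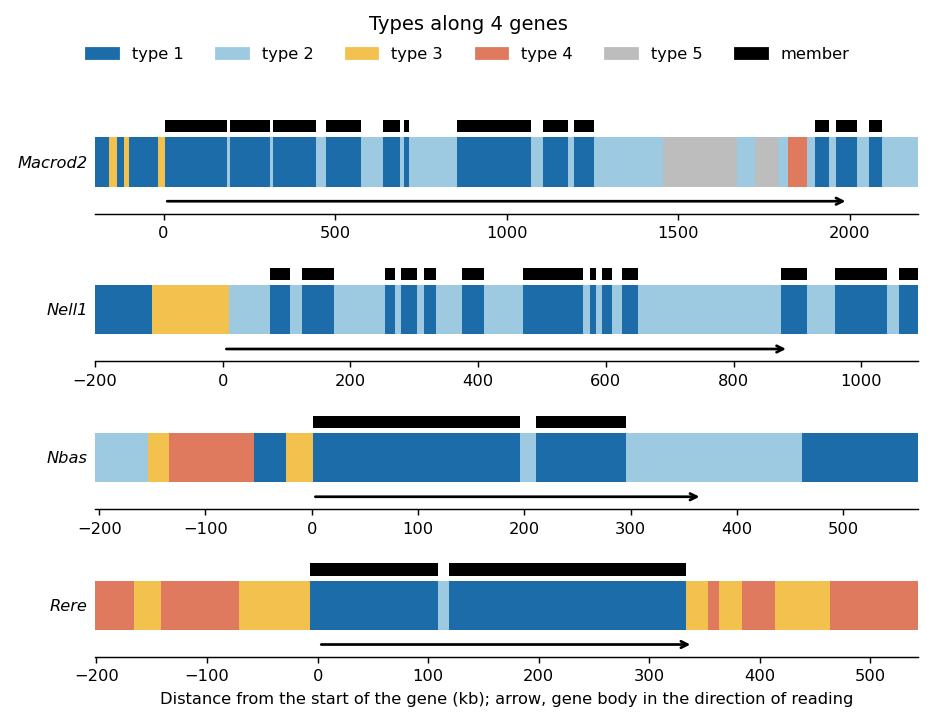
Types along Macrod2, Nell1, Nbas and Rere (coloured blocks) with members marked by black bars, against the distance from the start of the gene (x axis, kb). Arrows show the gene body in its direction of reading. Macrod2 holds 10 members wholly inside it among stretches of type 2 and, further along, types 4 and 5. Nell1 holds 9 among type 2, 1 of them drawn as 2 bars because a shorter type 2 segment overlaps it. Rere lies at 95.02% in members.

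Next came the 12 longest genes of which 1 member covers 50% or more. In these, 51.1 to 95.02% of the body lay in members. Of the 9 with a known start site, that site lies in type 3 in 6, in a member in 2 and in type 5 in 1. The longest was Cntn6 (371 kb), a contactin of neuronal adhesion, which starts in type 5 and has 61.6% of its body in members. Nbas (368 kb), which acts in transport between Golgi and endoplasmic reticulum, starts in type 3 and has 76.0% in members and 23.7% in type 2. Rere (340 kb), a corepressor gene, starts in a member and has 95.02% in members. Others with a start in type 3 are Hs3st5, a heparan sulfate sulfotransferase gene (328 kb, 92.9% in members), and Fmn2, the actin nucleator of spindle positioning in oocytes (321 kb, 87.2%). Further ones are Pid1 (304 kb, 67.5%), Nrcam, a neuronal adhesion gene (276 kb, 58.0%), and Chchd3, a gene of mitochondrial cristae (268 kb, 78.3%). Acaca, the gene of acetyl-CoA carboxylase in fatty acid synthesis, is 272 kb long with 75.4% in members and 21.0% in type 3. The start site used for Acaca lies in the member but inside the gene body, which begins before the member. For Ccdc178, Stau2 and Arhgap10 no start site was used here, and their shares in members were 51.1%, 80.6% and 89.7%.

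The longest genes lying wholly in 1 member were Dennd1b (212 kb), a regulator of Rab GTPases, Rngtt (192 kb), the mRNA capping enzyme, and Tusc3 (162 kb), a subunit of oligosaccharyltransferase. They were followed by Ankrd17 (142 kb), Ccny (138 kb), a membrane-bound cyclin, Dmxl2 (137 kb), which acts with the vacuolar proton pump, Zfp438 (125 kb) and Mrps28 (122 kb), a mitochondrial ribosome protein. Among the 10 longest members, 5 touch no protein-coding gene at 245 kb each and 1 at 240 kb. The other 4, of 245 kb each, hold Fut8, which adds core fucose to glycoproteins (94.9% of the member in gene bodies), Cers6, a ceramide synthase (99.7%), Cntn6 (93.2%), and the growth hormone receptor Ghr with Ccdc152 and the selenium carrier Selenop (81.6%).

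Gene lists were counted by the share of their genes assigned to members, beside 6.04% of all protein-coding genes. Few developmental regulators were among them. Of 111 developmental transcription factor genes 1 was assigned (0.901%, 0.0228 to 4.92), while 45 lay in type 3 and 60 in type 4. This is not particular to members: 0 lay between type 3, 0 beside type 5 and 0 in long type 1 segments. Secreted developmental ligands gave 0 of 50 (upper bound 7.11%), collagens 0 of 42 (8.41%), kinesins 0 of 41 (8.60%) and cadherins 0 of 32 (10.9%). Each of these upper bounds is above the 6.04% of all genes. Potassium channels gave 1 of 92, Kcnn2. Of 66 synaptic adhesion and axon guidance genes, 6 (9.09%, 3.41 to 18.7) were assigned, among them Cntn3, Cntn6, Cntnap4 and the ephrin receptor Epha4. The member covers 26.2% of Cntn3 and 23.2% of Cntnap4. Of the same list 27 genes (40.9%) lay in type 5, 16 in type 2, 9 in long type 1 segments and 0 between type 3.

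DNA repair genes gave 11 of 73 (15.1%, 7.77 to 25.4), among them Ercc5, the endonuclease of nucleotide excision repair, Ercc6, which acts in transcription-coupled repair, the exonuclease gene Exo1 and Lig4, the ligase of end joining. Segments between type 3 held 41.1% of the same list, against 18.4% of all protein-coding genes. The intervals of the next 5 lists all hold the 6.04% of all genes. Ribosomal protein genes gave 2 of 79 (2.53%, 0.308 to 8.85), Rpl15 and Rpl22l1, and 62.0% of them lay between type 3. Proteasome subunits gave 1 of 39 (2.56%, 0.0649 to 13.5), Psmb7, and 51.3% lay between type 3. Mitochondrial ribosome genes gave 7 of 78 (8.97%, 3.68 to 17.6). Complex I genes gave 3 of 47 (6.38%, 1.34 to 17.5), which are Ndufa12, Ndufa5 and the assembly factor Ndufaf4. Cilia genes gave 5 of 62 (8.06%, 2.67 to 17.8), which are Ift46, Iqcb1, Rpgrip1l, Spag16 and Tmem67. Spag16 spans 898 kb, and the member it was assigned to covers 18.9% of it.

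Chromatin and Polycomb genes gave 4 of 76 (5.26%, 1.45 to 12.9). They were Asxl1 and Asxl3, partners of Bap1 in PR-DUB, Rybp, a subunit of variant Polycomb repressive complex 1, and the remodeller Chd2. Asxl1 lay wholly in a 60 kb member, and Rybp had 96.0% of its body in one of 65 kb. Between type 3 lay 51.3% of that list, against 18.4% of all protein-coding genes. Meiosis and piRNA genes gave 4 of 52 (7.69%): Asz1, Mybl1, the meiotic cohesin Rad21l and the synaptonemal complex gene Sycp2. Oocyte genes gave 2 of 34, Cpeb1, which controls polyadenylation in the cytoplasm, and Nlrp14. Imprinted genes gave 2 of 61, Nap1l4 and Ppp1r9a, of which the members cover 96.1% and 26.6%.

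Families that stand in clusters were also counted with only the first gene of each group within 100 kb. Cytochrome P450 genes, which oxidise steroids, fatty acids and drugs, gave 15 of 99 (15.2%, 8.74 to 23.8), among them Cyp2b13, Cyp2b9, Cyp2j12 and Cyp2j5. The count by groups gave 6.67%. Vomeronasal receptors gave 35 of 349 (10.03%, 7.09 to 13.7), or 4.88% by groups. Olfactory receptors gave 70 of 1103 (6.35%, 4.98 to 7.95), or 7.79% by groups, and 55.7% of them lay in type 5. Serpins gave 5 of 62 (8.06%, 2.67 to 17.8), or 0% by groups. The 5 are Serpina1a, Serpina1c, Serpinb10, Serpinb1c and Serpinb2. Solute carriers gave 21 of 376 (5.59%), zinc finger protein genes 13 of 388 (3.35%, 1.80 to 5.66; 5.05% by groups), F-box and Trim genes 6 of 146 (4.11%), ADAM proteases 3 of 53 (5.66%), ABC transporters 2 of 48 (Abca14 and Abcb4) and dynein heavy chains 2 of 15 (Dnah3 and Dnah5). The member covers 41.0% of Dnah5 and 22.99% of Dnah3, which has 40.2% of its body in type 4.

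**Figure D5:**
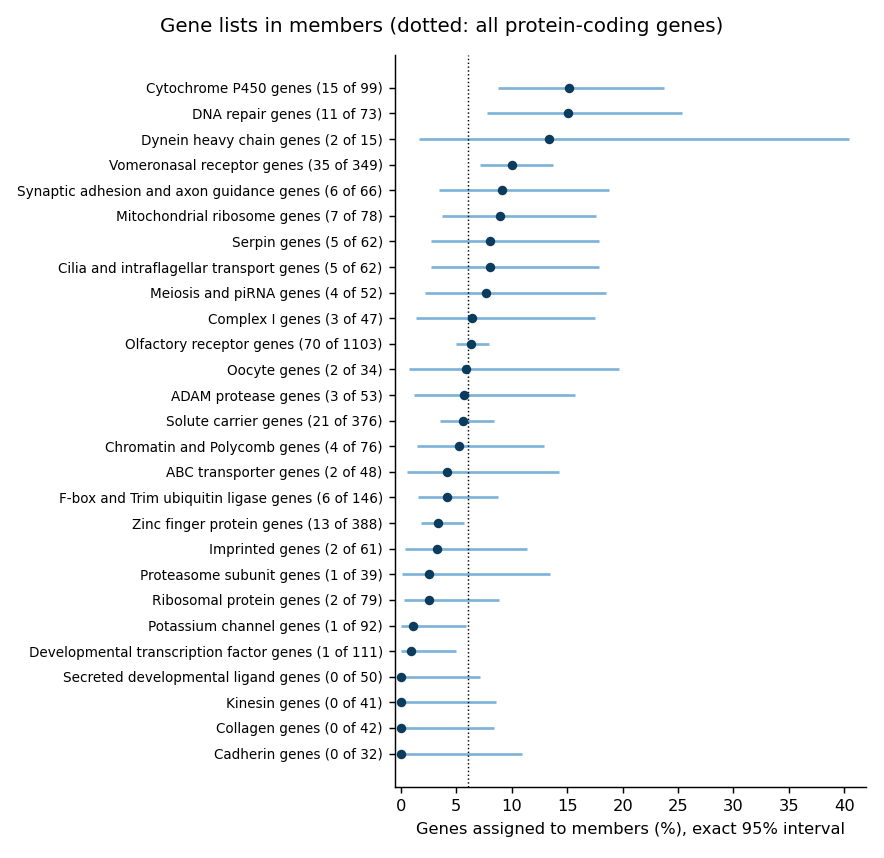
Share of the genes of each list assigned to members (x axis, percent) with its exact 95% interval, with the counts beside the names. The dotted line is the 6.04% of all protein-coding genes. Cytochrome P450 and DNA repair genes lie to the right at 15.2% and 15.1%, and developmental transcription factors to the left at 0.901%.

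Members were found on every segmented chromosome at 0.591 to 1.49 per Mb (mean 1.13, SD 0.266), and took 2.96 to 9.52% of a chromosome's length. Across the 19 chromosomes the number per Mb was lower where protein-coding genes were denser (Pearson's r -0.46, Spearman's rho -0.49). For segments between type 3 the same values were 0.73 and 0.77. These are descriptions over chromosomes that share 1 segmentation. The nearest type 3 lay at a median of 5 kb (quartiles 0 and 155), and the 49.1% of members between types 2 and 3 touch it. Type 4 lay at a median of 215 kb and type 5 at 325 kb. A distance of 0 to type 5 is excluded by the choice of members, so these medians are partly fixed by it. The nearest type 1 segment of 250 kb or more was 1140 kb away at the median.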

How the data were processed

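The authors deposited 1 segmentation of chromosomes 1 to 19 for the whole series, whose value is a category, a ChromHMM type label from 1 to 5, and not a quantity. It gives no value per library. The build mm10 and the tools deepTools 3.0.2, Picard 2.8.0, Bowtie2 2.3.4.3 and Trim Galore 0.4.5 are listed, per the submitters' processing notes. For ChromHMM the version, input libraries and key were not given in the sources used here.

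Segments were sorted, and merging touching segments of 1 type left 31563. The genome was read in 5 kb bins, with the shorter segment used where 2 overlapped. Genes came from a RefSeq table of GRCm38.p6 (46709 genes, 20558 protein-coding, 333 on scaffolds left out). Start sites and promoter sequences came from RefSeq for 16457 protein-coding genes (80.1%). None were on chromosome 18, which also has no miRNA hairpin in the table used. The start site was the outermost of those listed per gene, which can lie inside the gene body, as for Acaca. CpG observed to expected is the CpG count times the length over the product of the C and G counts.

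The members and the 27 gene lists were chosen with earlier results of these data known. Genes and regions were named by rule: the 10 longest members, the 5 with most genes wholly inside, the longest of each pair of neighbours, the longest run, the 12 longest genes with 50% or more in 1 member, the 8 longest wholly inside, and the first 4 of each list, or all where 5 or fewer were assigned. Some genes that the rule takes are left unnamed here. No test was planned or run. Alternatives varied the length limit, the neighbours, the gene set and the assignment of genes. Scripts, tested on simulated segments, used Python 3.11.15, numpy 2.4.6, pandas 2.3.3, scipy 1.17.1 and matplotlib 3.10.9.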

Additional observations from a re-analysis of the deposited data

How the results depend on the processing

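Of 29 alternatives outside the lists, 18 left the value within its spread over chromosomes, its 95% interval, or 1.5 times for a count. The number of members ran from 2745 to 2927 under other length limits and neighbour rules. The mean length was 61.3 kb, and the median of members of at least 25 kb was 60 kb. In members of at least 25 kb, 54.1% lay between type 2 on both sides and 63.5% had no protein-coding gene. With all annotated genes there were 15.6 genes per Mb, 53.9% of members had no gene and 49.7% of borders lay inside a gene body. Counting only genes wholly inside a member gave 651 genes, 3.72 per Mb, with a median length of 14.3 kb. Among alternatives chosen after seeing the data, restricting to genes of which 1 segment covers 50% or more gave starts in type 3 in 17.5% of cases. Of 54 alternatives of the lists, 3 fell outside the interval, when only the first gene of each group within 100 kb counted: serpins 0%, cytochrome P450 6.67% and vomeronasal receptors 4.88%. The depth of the libraries is unknown, and borders are no finer than 5 kb. No paired analysis was possible because the segmentation has no value for any library.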

Other observations

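The members with the most protein-coding genes wholly inside held clusters of chemosensory receptors. A member of 215 kb between types 3 and 2, chr10:129010001-129225000, held 9 olfactory receptor genes, among them Olfr768 to Olfr773. A member of 230 kb, chr13:22325001-22555000, held 8 genes, among them the type 1 vomeronasal receptors Vmn1r198 and Vmn1r203. In a member of 180 kb, chr10:23995001-24175000, 8 genes lay inside, among them the trace amine receptors Taar7b, Taar7d, Taar7e and Taar7f, beside Stx7, a syntaxin of late endosomes. Nlrp14 stands with olfactory receptors such as Olfr715 and Olfr716 in a member of 165 kb, chr7:106995001-107160000, with 7 genes wholly inside.

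Another of the 5 members, of 75 kb, chr11:120560001-120635000, held 8 genes, among them P4hb, the protein disulfide isomerase, Anapc11, a subunit of the anaphase-promoting complex, Alyref, an mRNA export factor, and the deacetylase gene Sirt7. Gene bodies covered 73.5% of it, against 3.95% of the olfactory receptor member of 215 kb and 3.29% of the vomeronasal one.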
